A study of Mus musculus with 36 samples.

Results

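The brains of sleep-deprived AKR/J mice were set against the brains of sleep-deprived C57BL/6J mice, with 3 arrays in each group, 6 of the 36 arrays of the series. The arrays were chosen by their titles, which name the tissue, the strain and the sleep deprivation, and no measured value entered the choice. All mice were males of inbred strains, aged 12 to 13 weeks. The AKR/J and C57BL/6J mice of the comparison were kept awake for 6 h from light onset and were killed at the end of that time, at Zeitgeber time (ZT) 6, which counts hours from light onset. Undisturbed home-cage controls of each strain were killed at the same ZT, and a further strain, DBA/2J, and livers of sleep-deprived mice gave values set beside the comparison. No group carried a mutation or a transgene that the labels name. Each array measured 1 pool of equal amounts of whole-brain RNA from 3 mice, so a group of 3 arrays drew on 9 mice and its spread is that between pools. The values are log2 expression values on Affymetrix arrays, made by the authors with RMA, so that a difference of 1 is a 2-fold difference.

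Inbred strains are fixed for different alleles at many genes, and some of these alleles raise or lower the amount of a transcript wherever the gene is active. Extended waking is known to raise activity-regulated and chaperone transcripts in the rodent brain and to lower cold-inducible RNA-binding proteins and some myelin genes. A strain comparison after sleep loss can therefore hold both differences that the strains have at any time and differences in their response. An array also reads only a short stretch of each transcript, so a different amount of a transcript cannot be told apart from a different sequence or splicing of that stretch.

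The 6 arrays correlated with each other between 0.981 and 0.997 over all probe sets. AKR/J array 3 and C57BL/6J array 1 had a narrower spread of values over probe sets, with standard deviations of 1.96 and 1.90 against 2.02 to 2.04 on the other 4 arrays. For the actin gene Actb, the 3′ control probe set exceeded the 5′ one, a sign of RNA degradation, by 0.72, 0.70 and 0.89 on the AKR/J arrays, against 0.60, 0.64 and 0.63 on the C57BL/6J arrays. Every AKR/J array thus lay above every C57BL/6J array, and the part of RNA quality in the strain differences was not tested. Among the controls, C57BL/6J array 2 had the largest such value of all brain arrays, 1.13, against 0.58 and 0.59 on the other C57BL/6J control arrays. The source names of AKR/J control arrays 2 and 3 read ZT 0, whereas their titles and the study's design place them at ZT 6. They were treated as controls and enter the comparison of sleep-deprived brains only through the shared estimate of the spread.

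A probe set, a group of probes for 1 transcript, was called different where limma gave it an adjusted p below 0.05 over the 45037 probe sets tested. After sleep loss 815 probe sets differed between AKR/J and C57BL/6J, 1.81% of those tested. Of these, 351 (0.779%) were higher in AKR/J and 464 (1.03%) were lower. The AKR/J and C57BL/6J arrays did not overlap at 814 of the 815, and at 13.7% of all probe sets. The exception, a probe set of Ppip5k1, fell by 0.88 in AKR/J, and the groups overlapped there by 0.03. The same arrays gave the calls, so this separation largely follows from the threshold and is no further support for them. Leaving out AKR/J array 1 left 535 calls, of which 523 were among the 815. The excess of lower over higher calls turned without AKR/J array 3, to 521 higher and 402 lower. It also turned with arrays weighted by quality, to 2339 higher and 1825 lower, and with only the brighter probe sets tested, to 389 higher and 363 lower.

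The differences ranged from 0.28 to 5.95 in size with a median of 0.71, and 234 were at least 1. Among the 44 of at least 2, the most extreme probe set carried no gene name: it read 4.12, 3.76 and 3.85 in AKR/J brains, against 9.84, 9.78 and 9.93 in C57BL/6J brains. Among the brighter probe sets, whose mean lay above the median of all brain values, 320 were higher and 313 lower in AKR/J. Among the dimmer ones 31 were higher and 151 were lower.

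Genes were counted by 1 probe set each, the one with the highest mean over the 18 brain arrays. By this count 339 of 18193 genes differed (1.86%), of which 200 were higher (1.1%) and 139 lower (0.764%) in AKR/J. Without AKR/J array 1 there were 109 higher and 101 lower, and without C57BL/6J array 1 the excess of higher genes turned, to 142 higher and 148 lower. The median difference of all genes was 0.03. The 15 genes with the largest difference in each direction are shown array by array in the plot of levels in the 3 strains.

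**Figure D1:**
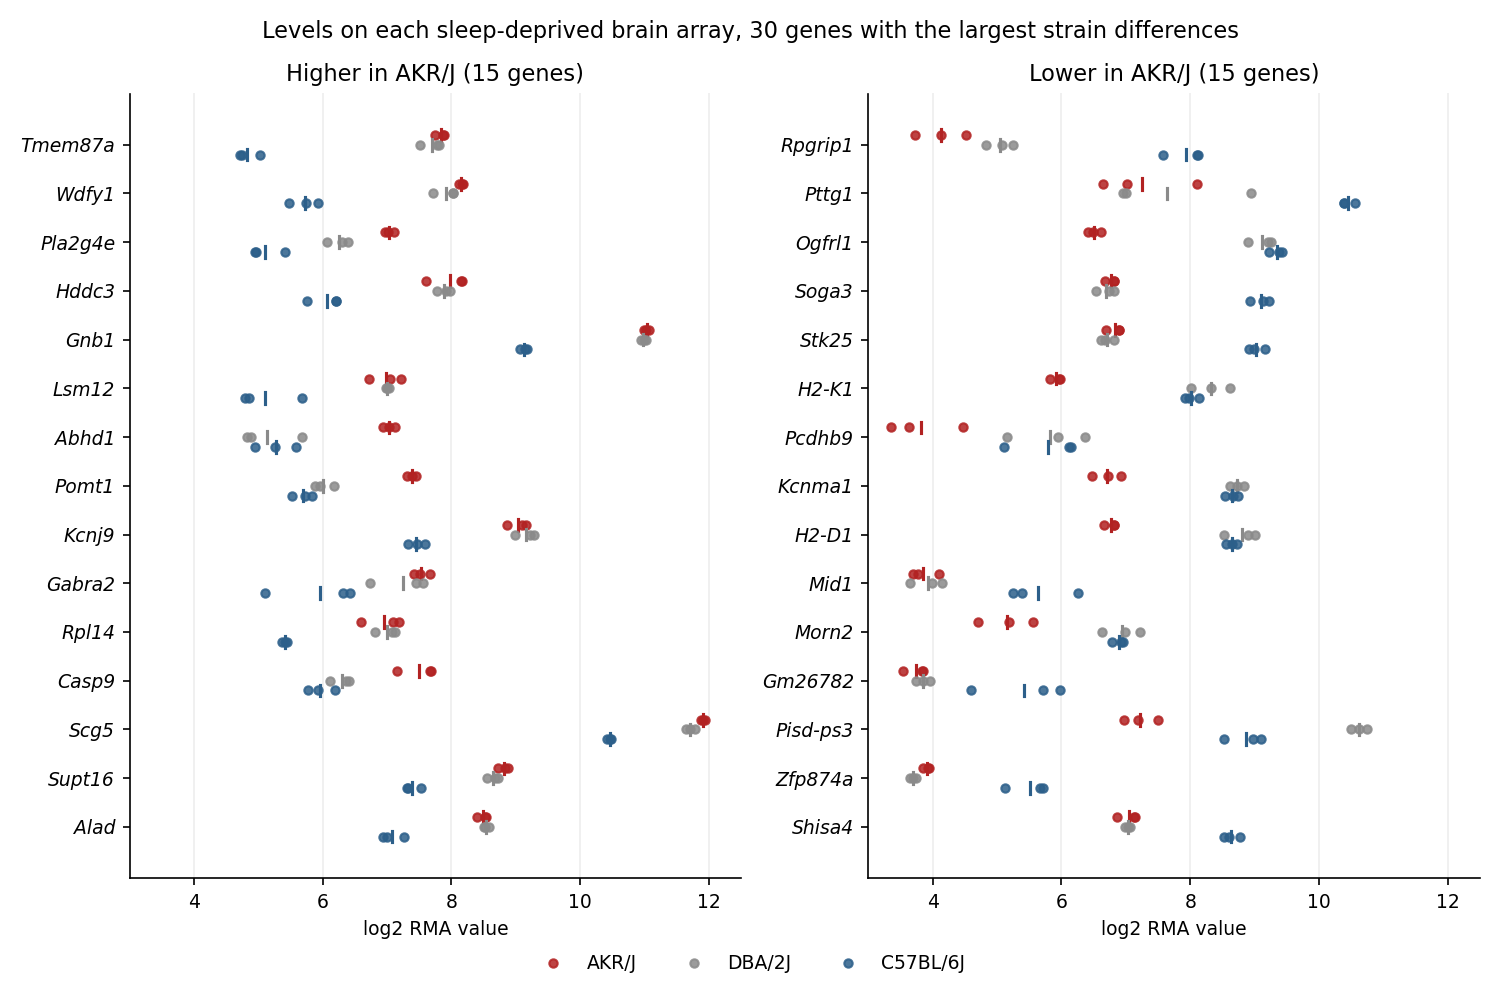
Log2 RMA values (x axis) of the 15 genes most raised (left) and the 15 most lowered (right) in AKR/J, on each sleep-deprived brain array. Points are arrays, 3 a strain, and ticks are strain means; AKR/J is drawn above DBA/2J and C57BL/6J. AKR/J and C57BL/6J points do not overlap for any of the 30 genes, and DBA/2J lies nearer AKR/J for 12 of the 15 on the left and 8 of the 15 on the right.

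Tmem87a, which encodes a membrane protein of the Golgi, had the largest rise. It read 7.87, 7.89 and 7.74 in AKR/J brains, against 4.71, 5.02 and 4.74 in C57BL/6J brains. All 3 AKR/J arrays lay 2.73 or more above the highest C57BL/6J array, and the difference was 3.01 ± 0.11 (SE), 8.08-fold, with an adjusted p of 5.2e-11 by limma. Wdfy1, an adaptor of Toll-like receptor signalling on endosomes, read 8.18, 8.11 and 8.16 in AKR/J, against 5.48, 5.74 and 5.93 in C57BL/6J. The difference of 2.43 ± 0.11 had an adjusted p of 6.1e-10 by limma, and 3 of its 5 probe sets were higher in AKR/J.

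Gnb1, a beta subunit of heterotrimeric G proteins, read 11.03, 11.07 and 11.00 in AKR/J brains, against 9.07, 9.18 and 9.14 in C57BL/6J brains. It was the second brightest of the 15, and its groups were separated by 1.83, with a difference of 1.90 ± 0.16. Kcnj9 encodes a subunit of the inward rectifier potassium channels that G-protein beta-gamma subunits open. It read 9.09, 9.16 and 8.87 in AKR/J, against 7.32, 7.59 and 7.46 in C57BL/6J, a difference of 1.58 ± 0.12 (adjusted p = 5.3e-07, limma).

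Gabra2 encodes the alpha-2 subunit of the GABA-A receptor, through which the main inhibitory transmitter of the brain acts. It read 7.67, 7.51 and 7.42 in AKR/J brains, against 5.11, 6.43 and 6.31 in C57BL/6J brains. C57BL/6J array 1, one of the arrays of narrow spread, was the lowest by more than 1 log2 unit, and the other C57BL/6J arrays still lay 0.99 or more below every AKR/J array. The difference was 1.58 ± 0.27 with an adjusted p of 0.0030 by limma. Pla2g4e, an enzyme that makes N-acyl phospholipids, the precursors of some endocannabinoids, read 7.01, 7.11 and 6.97 in AKR/J, against 5.42, 4.96 and 4.94 in C57BL/6J. Its difference was 1.92 ± 0.13. Scg5, a chaperone of a prohormone convertase in neuroendocrine cells, was the brightest of the 15 and among the tightest: it read 11.94, 11.91 and 11.88 in AKR/J and 10.42, 10.48 and 10.47 in C57BL/6J, a difference of 1.45 ± 0.07.

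Among the other genes of the 15, Hddc3, a nucleotide hydrolase, rose by 1.91, Lsm12, an RNA-binding protein, by 1.88, Abhd1, a member of the alpha/beta hydrolase family, by 1.77 and Pomt1, an O-mannosyltransferase needed to glycosylate dystroglycan, by 1.69. Rpl14, a protein of the large ribosomal subunit, rose by 1.55, Casp9, the initiator caspase of the mitochondrial death pathway, by 1.54 and Supt16, a subunit of a histone chaperone, by 1.43. Alad catalyses an early step of heme synthesis, and the Alad locus is known to be duplicated in some inbred strains, AKR/J among them. Alad read 8.52, 8.54 and 8.40 in AKR/J brains, against 6.94, 7.0 and 7.27 in C57BL/6J brains, a difference of 1.42 ± 0.09. Both of its probe sets and all 3 of those of Casp9 were called higher.

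Rpgrip1, a protein of the photoreceptor connecting cilium, fell furthest among genes counted by their brightest probe set. It read 4.12, 3.73 and 4.51 in AKR/J brains, against 7.58, 8.11 and 8.12 in C57BL/6J brains. The groups were 3.07 apart, and AKR/J was lower by 3.82 ± 0.19 on the log2 scale, with C57BL/6J 14.1-fold higher (adjusted p = 1.4e-09, limma). The other 3 probe sets of Rpgrip1 did not pass the test, with differences of 0.04 to 0.07. Pttg1 encodes securin, which holds sister chromatids together until anaphase. It read 6.64, 7.02 and 8.11 in AKR/J, against 10.56, 10.39 and 10.39 in C57BL/6J. AKR/J array 3 was the highest of its group, yet 2.28 below the lowest C57BL/6J array, and all 3 probe sets of Pttg1 were called lower in AKR/J.

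Ogfrl1 read 6.61, 6.41 and 6.49 in AKR/J brains, against 9.23, 9.43 and 9.38 in C57BL/6J brains. It fell by 2.85 on the log2 scale (SE 0.12, adjusted p = 6.1e-10, limma). Soga3 fell by 2.33 and Stk25, a kinase of the Golgi, by 2.19, with gaps of 2.12 and 2.01 between the groups. For both, the DBA/2J arrays lay with AKR/J: Stk25 read 6.67, 6.82 and 6.62 in DBA/2J, beside 6.69, 6.89 and 6.90 in AKR/J and 8.91, 8.99 and 9.16 in C57BL/6J. For Ogfrl1 they lay with C57BL/6J, at 9.21, 8.90 and 9.25.

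Kcnma1 encodes the pore-forming subunit of the large-conductance calcium-activated potassium channel, which ends action potentials and sets firing patterns, also in the circadian clock. It read 6.72, 6.93 and 6.48 in AKR/J brains, against 8.54, 8.67 and 8.74 in C57BL/6J brains. It fell by 1.94 in AKR/J (SE 0.24, adjusted p = 9.5e-05, limma), and 1 of its 5 probe sets was called. Pcdhb9, a protocadherin of the neuronal surface, read 3.35, 4.47 and 3.63 in AKR/J, against 5.10, 6.15 and 6.11 in C57BL/6J, and fell by 1.97 with a larger error (SE 0.32). The remaining genes among the 15 were Mid1, a microtubule-associated ubiquitin ligase, which fell by 1.78, Morn2 by 1.74, the predicted gene Gm26782 by 1.68, Pisd-ps3, a pseudogene of a phosphatidylserine decarboxylase, by 1.65, the zinc finger gene Zfp874a by 1.60 and Shisa4, a membrane protein, by 1.59. Pcdhb9 and Zfp874a belong to families of similar genes, and Rpl14 and Pisd-ps3 have related copies, so their probe sets may read more than 1 locus.

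The class I histocompatibility genes H2-K1 and H2-D1, whose proteins present peptides to cytotoxic T cells, were both among the 15 genes that fell furthest. AKR/J carries the k haplotype of this complex, C57BL/6J the b haplotype and DBA/2J the d haplotype, and the genes differ in sequence between haplotypes. H2-K1 read 5.82, 5.96 and 5.97 in AKR/J brains, against 7.92, 7.98 and 8.13 in C57BL/6J brains, and fell by 2.09 in AKR/J (SE 0.15). H2-D1, on its brightest probe set, read 6.82, 6.82 and 6.66 in AKR/J, against 8.73, 8.55 and 8.65 in C57BL/6J.

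The 9 probe sets of H2-D1 differed in direction. Of these, 4 were called lower in AKR/J, by 0.64 to 2.55, and 1 was called higher by 2.75, with values of 6.61, 5.87 and 6.21 in AKR/J against 3.42, 3.49 and 3.53 in C57BL/6J. The other 4 were not called. On 1 of these, AKR/J read 4.12, 4.12 and 4.36 and C57BL/6J 4.06, 4.16 and 4.14, while DBA/2J read 7.87, 7.95 and 7.29. The direction given for H2-D1 is thus that of the stretch a probe set reads, and the same complex holds near-identical genes whose RNA the probe sets may share.

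Of the 815 called probe sets 639 had 1 gene symbol, 39 had several and 137 had none. The 639 named 548 genes, of which 392 had more than 1 probe set on the array. In 314 of the 392 a single probe set was called, and in 78 at least 2 were. Of the 78, 68 moved in 1 direction and 10 had calls in both, namely Atp5g1, H2-D1, Pnma2, Prune2, Sdc4, Sorl1, Spire1, St8sia3, Tbc1d9b and Zfp398. These 10 are plotted probe set by probe set.

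**Figure D2:**
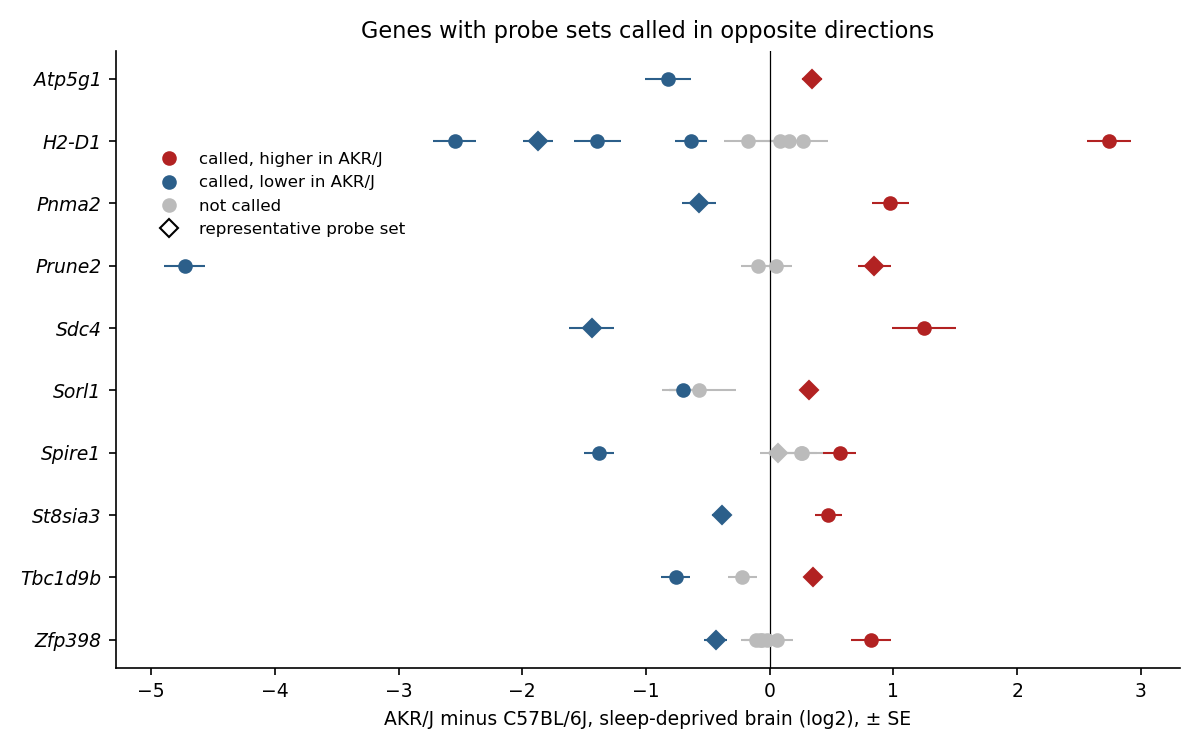
AKR/J minus C57BL/6J in sleep-deprived brains (x axis, log2, ± SE from limma) for every probe set of the 10 genes with calls in opposite directions. Red marks a call higher in AKR/J, blue a call lower, grey no call, and diamonds the brightest probe set of the gene. Prune2 spans -4.73 to 0.85 and H2-D1 spans -2.55 to 2.75.

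The genes in this paragraph were picked after their values were seen, since their largest differences lay on a probe set other than the brightest. A probe set of Prune2 read 3.36, 3.16 and 3.53 in AKR/J brains, against 7.96, 8.13 and 8.15 in C57BL/6J brains, a difference of -4.73, while the brightest probe set of Prune2 was 0.85 higher in AKR/J. A probe set of Scn2b, an auxiliary subunit of voltage-gated sodium channels, was 4.29 log2 units lower in AKR/J, at 5.26, 5.74 and 5.16 against 9.57, 9.72 and 9.73 in C57BL/6J. The brightest probe set of Scn2b fell by 0.57. One probe set each of Mtmr7, a phosphoinositide phosphatase, Uqcr10, a subunit of respiratory complex III, Rps9, a protein of the small ribosomal subunit, and Atxn1, the protein mutated in a spinocerebellar ataxia, fell by 3.83, 3.27, 3.12 and 2.94. The brightest probe sets of these 4 genes were not called, at -0.30, -0.01, 0.27 and 0.13. In all, 209 genes were called on another probe set and not on their brightest one.

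The same strain difference was measured in home-cage controls. The group means come from other arrays, but both comparisons share 1 fit and its estimate of the spread. In controls 901 probe sets were called (2.0%), and 545 of them were called in the same direction after sleep loss, 66.9% of the sleep-deprived calls and 60.5% of the control calls. By direction, 0.924% of probe sets were higher and 1.08% lower in AKR/J controls. Without AKR/J control array 3 the control calls numbered 555, and without both arrays labelled ZT 0 they numbered 259. Of the 815 sleep-deprived calls 810 had the same sign in controls, and 0 were called in the opposite direction. Among the 901 control calls, 881 kept their sign after sleep loss, with a median size of 0.60 in sleep-deprived brains and 0.71 in controls, and the correlation of the 2 differences across these probe sets was 0.85. Over all probe sets it was 0.62. The 901 were chosen by their control values, which favours a larger size in controls, so the 2 medians do not measure a change with sleep loss. Probe sets are not independent replicates, and these values describe these arrays.

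**Figure D3:**
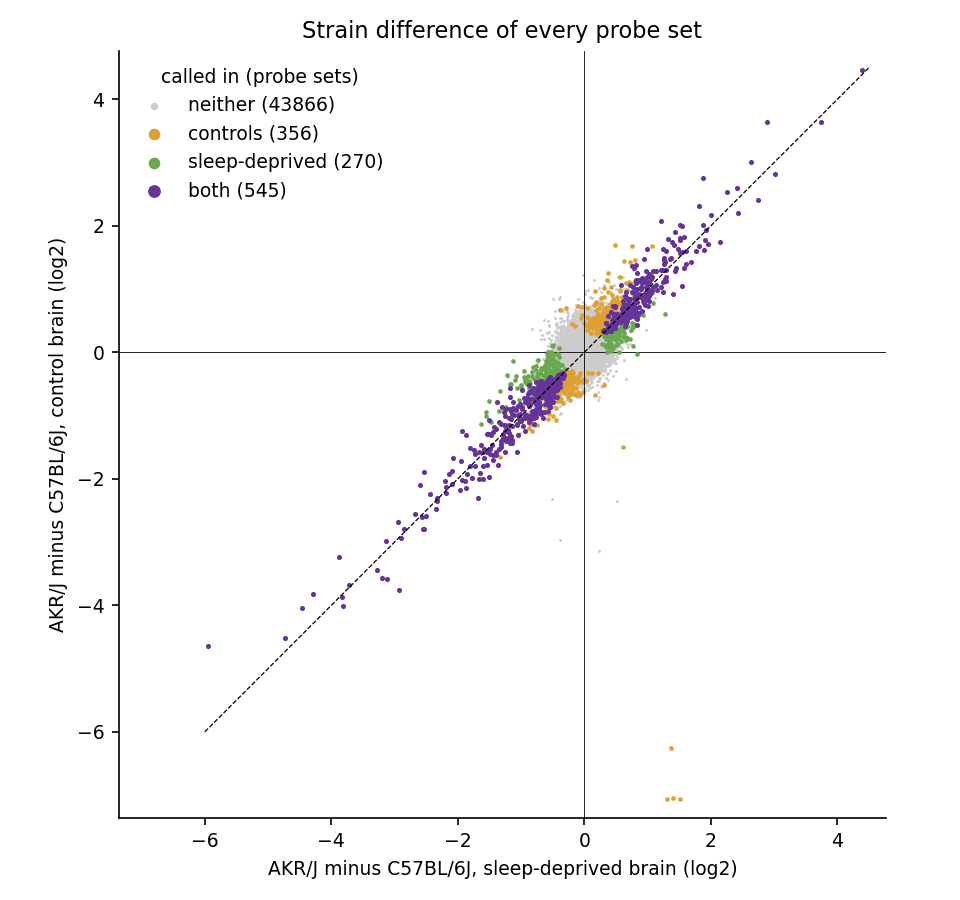
AKR/J minus C57BL/6J in sleep-deprived brains (x axis, log2) against the same in control brains (y axis, log2) for all 45037 probe sets, with the dashed line at equal differences. Purple points are the 545 called in both, green the 270 called after sleep loss alone, orange the 356 called in controls alone and grey the rest; the 4 orange points at the lower right, near 1.4 and below -6, are the 4 probe sets of Gh.

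All 30 of the largest genes were also called in controls, where 2.01% of all genes were called, 1.04% higher and 0.967% lower. Tmem87a differed by 2.82 there, Wdfy1 by 2.21, Rpgrip1 by -4.01, Pttg1 by -3.57, Ogfrl1 by -2.79 and Stk25 by -2.23. The 5 called probe sets whose sign differed were 1 each of Egr2 and Dusp12 and 3 without a gene name, and their control differences were -0.03, 0.10 and 0.00 to 0.11.

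The interaction, the strain difference after sleep loss minus that in controls, was called at 0 of 45037 probe sets by limma. At an unadjusted p below 0.05 there were 1183 probe sets (2.63%), and the smallest adjusted p was 0.9999. With arrays weighted by their quality, an alternative, 42 were called. Interaction values below are therefore descriptions of single genes that did not pass the correction.

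The 10 genes with the smallest interaction p were Hspa5, Calr, Pdia6, Xbp1, Egr1, Egr3, Gh, Fcrls, Pglyrp1 and 6720468P15Rik. The first 4 belong to a list of 22 endoplasmic reticulum chaperones and response genes, out of 18193 genes measured. That list was drawn up with earlier results of these data known, and it was not tested as a set. Hspa5, the main chaperone of this compartment, read 10.67, 10.64 and 10.43 in sleep-deprived AKR/J brains and 10.32, 10.36 and 10.40 in sleep-deprived C57BL/6J brains. In controls it read 9.29, 9.15 and 9.21 in AKR/J and 9.56, 9.52 and 9.57 in C57BL/6J. The AKR/J mean thus lay above that of C57BL/6J after sleep loss and below it in controls, without overlap either time. After sleep loss the groups were 0.03 apart, and the difference of 0.22 did not pass the test (adjusted p = 0.29, limma). In controls the difference was -0.33 (adjusted p = 0.043, limma). The interaction was 0.55 ± 0.12 (unadjusted p = 0.00018, adjusted p = 0.9999, limma). Calr, the chaperone calreticulin, had the same order of means and an interaction of 0.44 ± 0.11. It read 11.07, 11.02 and 11.04 in AKR/J and 10.83, 10.84 and 10.85 in C57BL/6J after sleep loss. Its strain differences of 0.20 after sleep loss and -0.24 in controls did not pass the test (adjusted p = 0.33 and 0.18, limma). The transcription factors Xbp1, of the unfolded protein response, and Egr1 and Egr3, which neuronal activity induces, had interactions of 0.62, 0.56 and 0.94.

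Homer1, a scaffold of metabotropic glutamate receptors with a short activity-induced form, has 6 probe sets, and 0 of them were called between sleep-deprived AKR/J and C57BL/6J brains. The brightest read 9.35, 9.42 and 9.31 in AKR/J and 9.17, 9.27 and 9.28 in C57BL/6J, a difference of 0.12 with a 95% interval of -0.09 to 0.34. The probe set of Homer1 with the largest interaction read 9.21, 9.21 and 8.80 in sleep-deprived AKR/J and 8.03, 8.80 and 8.54 in sleep-deprived C57BL/6J, where the groups came within 0.002 of each other without overlapping. In controls it read 6.34, 4.86 and 5.80 in AKR/J and 7.01, 7.30 and 7.19 in C57BL/6J, which was called (-1.50, adjusted p = 0.0061, limma). Its interaction was 2.12 ± 0.40 (unadjusted p = 6.5e-05, adjusted p = 0.9999), and the 2 lowest AKR/J control values are those of the arrays whose source name gives ZT 0.

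**Figure D4:**
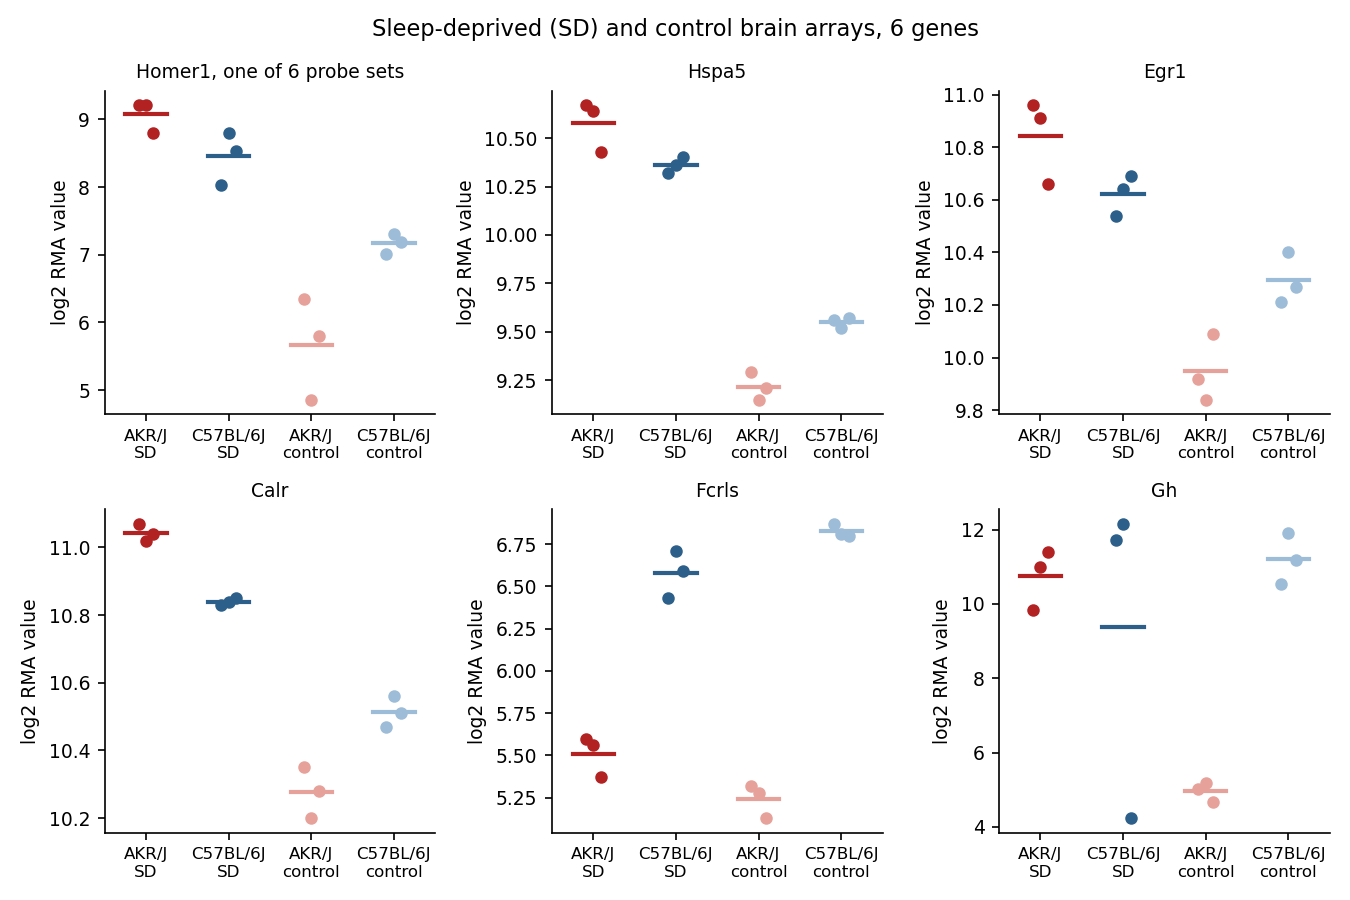
Log2 RMA values (y axis) of 6 genes on sleep-deprived (SD) and control brain arrays of AKR/J and C57BL/6J, with points for arrays, 3 a group, and bars for means. For Homer1 (the probe set with the largest interaction), Hspa5, Egr1 and Calr the AKR/J mean is above C57BL/6J after sleep deprivation and below it in controls; for Gh, C57BL/6J SD array 3 reads 4.24 and the AKR/J controls 4.68 to 5.18.

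Gh, the pituitary growth hormone, was among the same 10 genes. It read 9.83, 11.00 and 11.41 in sleep-deprived AKR/J brains and 11.72, 12.16 and 4.24 in sleep-deprived C57BL/6J brains. In controls it read 5.03, 5.18 and 4.68 in AKR/J and 10.55, 11.92 and 11.19 in C57BL/6J. Prl, the pituitary prolactin, had the same low array, with 8.11, 9.03 and 3.85 in sleep-deprived C57BL/6J. Summed on the linear scale, the 9 pituitary markers measured ranged from 1287 to 3665 in sleep-deprived AKR/J brains and from 239 to 6569 in sleep-deprived C57BL/6J brains, and none passed the test there. The sums were 267 to 310 in AKR/J controls and 2112 to 5291 in C57BL/6J controls. None of the 9 was at 0, a value that RMA does not give, and the part of the pituitary in the other differences was not tested.

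Gene lists were counted by the brightest probe set of each gene and are to be read against the 1.1% of all genes called higher, the 0.764% called lower and the median of 0.03. A gene called only on another probe set counts there as not called. Counts of sign are to be read against the 10359 of all 18193 genes that had a positive difference. The lists describe only these members, and no list was tested as a set. In bulk tissue, fewer cells of a type and less RNA per cell cannot be told apart.

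Genes that respond to waking and to stress were counted in 4 lists, of which 5 members were called in all. Of 30 activity-regulated genes, 1 was called, with a median difference of 0.13. This was Egr2, an early response factor, which read 5.77, 5.71 and 4.89 in AKR/J brains, against 4.64, 4.53 and 4.69 in C57BL/6J brains (adjusted p = 0.041, limma). AKR/J array 3 lay nearer to C57BL/6J than to the other AKR/J arrays, and the call was lost without any 1 of the other 5 arrays (differences of 0.68 to 0.87, adjusted p 0.095 to 0.24). Fos, the early response factor of the same class, read 8.30, 8.01 and 7.84 in AKR/J and 7.44, 7.55 and 7.82 in C57BL/6J, a difference of 0.45 with a 95% interval of 0.03 to 0.87 and an adjusted p of 0.44 by limma. Egr1 differed by 0.22 (0.01 to 0.43), Arc, a synaptic cytoskeleton protein, by 0.16 (-0.17 to 0.48), Bdnf, a neurotrophin, by 0.00 (-0.38 to 0.38) and Dio2, which activates thyroid hormone, by 0.18 (-0.13 to 0.48); none of these passed the test. Their intervals reach up to strain differences of 0.38 to 0.87.

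Of 20 heat shock and cytosolic chaperone genes 1 was called, with a median of 0.08. The gene was Hspe1, the mitochondrial cochaperonin, at 0.45 (adjusted p = 0.040, limma). Its call was lost without any 1 of 5 arrays, AKR/J array 3 excepted, with differences of 0.35 to 0.48 and adjusted p up to 0.24. Hspa1b, an inducible heat shock protein, read 8.08, 7.77 and 6.84 in AKR/J and 7.04, 7.36 and 7.47 in C57BL/6J, so that the groups overlapped. Of 22 endoplasmic reticulum chaperones and response genes 2 were called higher and 0 lower, 19 had a positive difference, and the median was 0.20. Pdia4, a protein disulfide isomerase, read 7.82, 7.32 and 7.42 in AKR/J brains, against 6.94, 6.82 and 6.91 in C57BL/6J brains, a rise of 0.63 ± 0.12. Ddit3, a stress-induced transcription factor, read 7.74, 7.67 and 7.61 in AKR/J, against 7.25, 7.24 and 7.29 in C57BL/6J, a rise of 0.41 ± 0.08. The call of Ddit3 was lost without AKR/J array 1 (0.38, adjusted p = 0.069) and without C57BL/6J array 2 (0.40, adjusted p = 0.052). Calls were gained as well: without AKR/J array 3 Pdia6, a protein disulfide isomerase, was called at 0.35 (adjusted p = 0.047, limma), and without both arrays of narrow spread 4 members of the list were called. In controls the median of the list was -0.10.

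The 19 glucocorticoid-induced genes had the lowest median of the pathway lists, -0.35, against -0.08 in controls, and 3 of the 19 had a positive difference. A single member was called: Nfkbia, the inhibitor of NF-kappa-B, read 8.72, 8.76 and 8.65 in AKR/J brains, against 9.16, 9.11 and 9.12 in C57BL/6J brains, and fell by 0.42 (adjusted p = 0.016, limma). Without any 1 of 5 arrays, AKR/J array 2 excepted, its adjusted p was 0.053 to 0.061 at differences of -0.39 to -0.43. Sgk1, a kinase that glucocorticoids and waking raise in brain, read 9.47, 9.37 and 8.97 in AKR/J, against 9.49, 9.71 and 10.01 in C57BL/6J. The groups did not overlap, by 0.02, but the difference of -0.46 did not pass the test (adjusted p = 0.35). Fkbp5, Tsc22d3 and Zbtb16, further targets of the glucocorticoid receptor, differed by -0.35, -0.38 and -0.42 and did not pass it either. Without the 2 arrays of narrow spread the median of the list was -0.33, and 0 members were called by limma, with Nfkbia at -0.37 (adjusted p = 0.13). Without C57BL/6J array 3 the median of the list was -0.26.

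Of 19 clock genes Per3 alone was called, at a median of 0.12 for the list. Per3, a paralogue of the clock repressors Per1 and Per2, read 6.97, 7.20 and 7.08 in AKR/J brains, against 5.89, 6.09 and 6.21 in C57BL/6J brains. It rose by 1.02 ± 0.14 (adjusted p = 0.00044, limma), by 1.12 in controls, and on 2 of its 6 probe sets. Dbp, a clock output factor, differed by 0.43 without passing the test on its brightest probe set (adjusted p = 0.073, 95% interval 0.19 to 0.67), while its other probe set was called higher. Per1 and Per2 differed by 0.14 and 0.23, within intervals that hold 0. Cirbp, a cold-inducible RNA-binding protein that sleep loss lowers, read 6.97, 6.82 and 6.88 in AKR/J and 6.70, 6.77 and 6.98 in C57BL/6J, and the groups overlapped.

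Of 14 genes with known variants among inbred strains 4 were called higher and 0 lower: Nnt, Glo1, Alad and Gabra2. C57BL/6J is known to carry a deletion in Nnt, the mitochondrial transhydrogenase that makes NADPH. Nnt read 7.69, 7.40 and 7.63 in AKR/J brains, against 6.12, 6.77 and 6.63 in C57BL/6J brains, a rise of 1.07 ± 0.16. Glo1, which detoxifies methylglyoxal and is known to be duplicated in AKR/J and DBA/2J, read 10.17, 10.06 and 10.07 in AKR/J, against 9.07, 9.09 and 9.16 in C57BL/6J, a rise of 0.99 ± 0.13 (adjusted p = 0.00027, limma). All 4 probe sets of Glo1 and 2 of the 3 of Nnt were called higher. DBA/2J read 10.12, 9.92 and 10.15 for Glo1, within 0.25 of AKR/J. For Nnt DBA/2J read 7.29, 6.77 and 7.11, with its mean between those of AKR/J and C57BL/6J, and it was not called different from either. By the brightest probe set, Nnt and Glo1 were the only calls among the 32 detoxification and redox genes. Prdx2, of that list, was called lower on another probe set, at -2.33 (adjusted p = 6.1e-10, limma). Its brightest probe set was not called, at 0.30. Nnt, Glo1, Alad and Gabra2 were put in the list of known variants with the strains known, so their direction is no independent evidence.

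Of 15 GABA receptor and synthesis genes 2 were called higher, Gabra2 and Gabra6, the cerebellar alpha-6 subunit, which rose by 0.40 (adjusted p = 0.040, limma) and lost its call without any 1 of 5 arrays, C57BL/6J array 3 excepted (0.31 to 0.43, adjusted p up to 0.17). Of 26 glutamate receptor and scaffold genes 0 were called by the brightest probe set, though 2 were called on another. By the brightest, Grin2b, a subunit of the NMDA receptor, had the largest difference, -0.60 (adjusted p = 0.17, limma). Of 32 potassium channel genes 2 were higher, Kcnj9 and its glial relative Kcnj10, and 2 lower, Kcnma1 and the modulatory subunit Kcnv1. Kcnj10 rose by 0.47 and Kcnv1 fell by 0.43, and each call was lost without any 1 of 5 arrays. Without them Kcnj10 differed by 0.40 to 0.49 (adjusted p 0.072 to 0.15), and Kcnv1 by -0.34 to -0.46 (adjusted p 0.063 to 0.18); AKR/J array 3 for Kcnj10 and C57BL/6J array 1 for Kcnv1 could be left out without losing the call. Of 9 adenosine signalling genes, 2 ectonucleotidases that break down extracellular ATP were lower: Entpd2 read 5.64, 5.75 and 5.78 in AKR/J brains, against 6.58, 6.37 and 6.28 in C57BL/6J brains, and fell by 0.69. Entpd3 fell by 0.40 and lost its call without AKR/J array 1 or 3 or C57BL/6J array 1 or 3 (-0.34 to -0.41, adjusted p 0.092 to 0.19). Of 25 neuropeptide genes 0 were called (median 0.04), and Pomc, the precursor of corticotropin, had the largest difference, -0.51, with the groups overlapping. Pomc is also a pituitary marker, and it read 8.80, 10.12 and 6.31 in C57BL/6J brains, lowest on the array where Gh was lowest. The part of the pituitary in this difference was not tested.

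Of 23 histocompatibility and antigen presentation genes 3 were lower and 0 higher: H2-K1, H2-D1 and H2-Ab1, a class II chain, which fell by 0.39. The call of H2-Ab1 was lost without AKR/J array 1 and without C57BL/6J array 2 or 3 (-0.33 to -0.39, adjusted p 0.061 to 0.12). The median of the list was -0.05. Of 32 interferon-stimulated genes 0 were called by the brightest probe set (median -0.06), though 1 was called on another. By the brightest, Trim30a was the furthest at -0.62 (adjusted p = 0.061, limma). Without C57BL/6J array 2 Trim30a was called, at -0.81 (adjusted p = 0.0086). Of 20 complement and innate receptor genes 2 were lower, the chains C1qb and C1qc of the first complement component. C1qb read 7.88, 7.71 and 7.46 in AKR/J brains, against 8.31, 8.53 and 8.48 in C57BL/6J brains, and C1qc read 7.10, 7.07 and 6.54, against 7.78, 7.81 and 7.74. Neither overlapped between the strains, and the falls were 0.76 ± 0.11 and 0.87 ± 0.15. Of 24 cholesterol and fatty acid synthesis genes 0 were called by the brightest probe set (median 0.09), with Insig1 the furthest at -0.64 and its groups overlapping. Sc5d, of the same list, was called lower on another probe set, at -2.67 (adjusted p = 6.7e-08, limma). Its brightest probe set differed by 0.04.

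Cell type markers were called in 2 of the 10 marker lists, those of microglia and astrocytes. Of 10 microglia markers C1qb was lower, while Aif1, an actin-binding protein, and the purinergic receptor P2ry12 were higher, so the list moved in both directions. P2ry12 read 7.72, 7.58 and 7.74 in AKR/J brains, against 6.65, 6.83 and 7.0 in C57BL/6J brains (0.86, adjusted p = 0.030, limma). The call was lost without any 1 of 5 arrays, C57BL/6J array 3 excepted (0.77 to 0.91, adjusted p up to 0.12), and that of Aif1 without AKR/J array 1 (0.57, adjusted p = 0.060). Fcrls, a further microglial receptor outside the list and among the 10 genes of smallest interaction p, read 5.60, 5.56 and 5.37 in AKR/J, against 6.43, 6.71 and 6.59 in C57BL/6J, a fall of 1.07. Of 12 astrocyte markers Slc1a2, the main glutamate transporter, was lower: 11.17, 11.18 and 10.72 in AKR/J, against 11.55, 11.59 and 11.60 in C57BL/6J, a fall of 0.56 ± 0.10 (adjusted p = 0.0058, limma).

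None of the markers of the other cell types passed the test, by the brightest probe set. These were 11 neuron markers (median 0.06), 10 oligodendrocyte (-0.09), 10 endothelial (-0.07), 11 choroid plexus (-0.02), 9 pituitary (0.06), 5 red blood cell (-0.21), 8 lymphocyte (-0.15) and 8 hepatocyte markers (0.01). An exception by array is Fgb, a hepatocyte marker that differed by 0.30 and was called without AKR/J array 2 (0.51, adjusted p = 0.034, limma). Fgb was dim, at 4.20, 3.63 and 4.31 in AKR/J and 3.70, 3.75 and 3.81 in C57BL/6J, below the brain median of 4.77. Its groups overlapped, since AKR/J array 2 was the lowest. All 10 oligodendrocyte markers had a negative difference, the largest for the myelin gene Mobp, at -0.22 (adjusted p = 0.29, limma), of which another probe set was called lower at -0.65. Opalin, a myelin protein, differed by -0.07. Among the neuron and endothelial markers the vesicular glutamate transporter Slc17a7 and the transporter Slco1c1 were furthest, at 0.31 each. Alas2, a red cell enzyme of heme synthesis, read 6.13, 5.95 and 5.72 in AKR/J brains, against 7.52, 7.16 and 6.63 in C57BL/6J brains. The groups did not overlap, and the difference of -1.17 had an adjusted p of 0.072. Without C57BL/6J array 3, Alas2 was called, at -1.40 (adjusted p = 0.049, limma).

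In the livers of sleep-deprived mice, measured on other arrays, 2904 probe sets differed between AKR/J and C57BL/6J (6.45%), 3.44% higher and 3.0% lower. Of the 815 brain calls 251 were called in the same direction in liver, 30.8% of the brain calls and 8.64% of the liver calls, 10 in the opposite direction, and 554 were not called. Among the genes that rose most in AKR/J brain 10 of 15 rose in liver too, and among those that fell most 11 of 15 fell, where 8.65% of all genes were called, 4.95% higher and 3.69% lower. The remaining 9 of the 30 were not called there. Rpgrip1 read 4.34, 4.23 and 4.10 in AKR/J livers, against 8.03, 8.17 and 7.61 in C57BL/6J livers, a difference of -3.71 in liver beside -3.82 in brain. Tmem87a differed by 1.69, Wdfy1 by 2.08 and Pttg1 by -2.34 in liver. Levels in brain and liver were not compared, since the tissues appear to have been normalised apart.

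A fit over both tissues, added after the data were seen, tested whether the strain difference itself differed between brain and liver. It called 1218 probe sets (2.7%), 1.33% with a difference more positive in brain and 1.37% more negative, and 333 of them were among the 815. Of the 30 largest genes 22 differed, where 3.41% of all genes did, 1.82% and 1.59% in these directions. The 815 and the 30 were chosen by the brain difference, which enters this test. The choice favours such an excess, so these counts are no independent result. Pla2g4e, Kcnj9, Gabra2, Casp9, Scg5, Shisa4, Soga3, Kcnma1 and Pcdhb9 differed between the strains in brain and were not called in liver. Some of these were dim in liver: Scg5 read 2.79, 2.90 and 2.80 in AKR/J livers and 2.66, 2.75 and 2.73 in C57BL/6J livers. For Abhd1, H2-D1, H2-K1, Hddc3 and Zfp874a the difference was larger in liver. Abhd1 read 8.94, 8.73 and 8.80 in AKR/J livers, against 4.78, 4.59 and 4.57 in C57BL/6J livers, a difference of 4.18 beside 1.77 in brain.

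**Figure D5:**
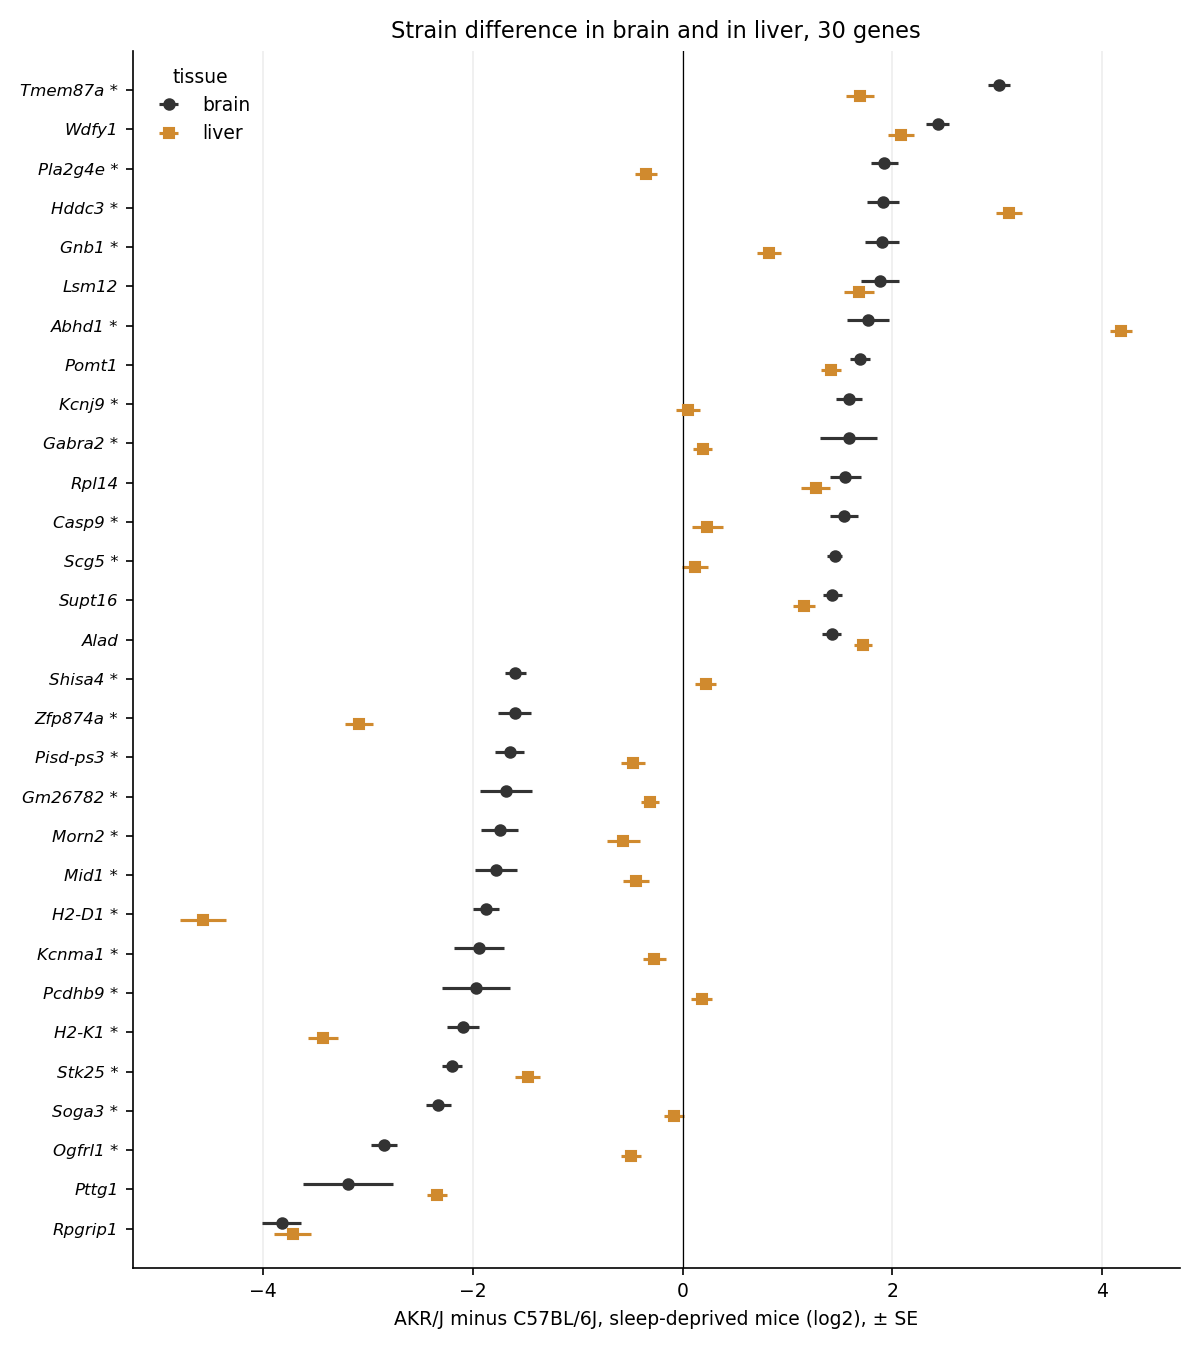
AKR/J minus C57BL/6J in sleep-deprived mice (x axis, log2, ± SE from limma) for the 30 largest genes in brain (dark circles) and in liver (orange squares). An asterisk marks the 22 genes whose difference differed between the tissues by limma; none of the 30 is called in opposite directions.

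DBA/2J gives a further value for each gene, on arrays of its own, though the 3 strain comparisons share groups. The DBA/2J mean lay nearer AKR/J than C57BL/6J for 12 of the 15 genes that rose most and for 8 of the 15 that fell most. AKR/J differed from DBA/2J by the same test at 4 of the 15 and 8 of the 15, where 1.54% of all genes did. Both sets of 15 were chosen on the same AKR/J arrays, which favours such calls, so these counts are no independent result. For Soga3, Stk25, Shisa4 and Tmem87a the AKR/J and DBA/2J means differed by 0.14 or less. For H2-K1, Kcnma1, Ogfrl1 and Morn2 DBA/2J lay with C57BL/6J, and AKR/J was lower than DBA/2J by 2.41, 2.01, 2.62 and 1.79. Pisd-ps3 read 7.19, 6.97 and 7.50 in AKR/J brains. It read 10.63, 10.50 and 10.74 in DBA/2J brains, against 9.10, 8.53 and 8.97 in C57BL/6J brains, so that all 3 strains were apart.

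Called genes were also counted by their neighbours in the reference order, using order alone. Of 339 called genes 31 (9.14%) had a neighbour called too, against 3.61% of all 18142 measured genes with a place in that order. These 31 formed 15 runs, 13 of them in 1 direction. Kcnj9 and Kcnj10 rose by 1.58 and 0.47, P2ry12 and its neighbour P2ry13, a receptor of the same family, by 0.86 and 0.44, Alad and Hdhd3 by 1.42 and 0.93, and Pomt1, Uck1 and Swi5 by 1.69, 0.96 and 1.13. C1qb and C1qc fell by 0.76 and 0.87. The 2 runs of mixed direction were Rpgrip1 with Supt16 and Entpd3 with Rpl14.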

How the data were processed

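Each array measured RNA pooled from 3 mice, as the protocols in the labels state. The authors deposited log2 values on the scale of RMA, which the submitters' processing notes name without a version. RMA subtracts background, gives arrays a common distribution and summarises each probe set, and it compresses differences of dim probe sets. No further normalisation was applied. Arrays have no sequencing depth, and their number limits the precision.

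Of 45101 probe sets, 64 controls were left out. Names came from the platform annotation, brought up to date by matching gene identifiers to RefSeq (assembly GRCm38.p6), which also gave the order of neighbouring genes: 34945 probe sets had 1 symbol (34741 matched by identifier), 932 several and 9160 none. Soat1 was not analysed here.

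Limma 3.58.1 in R 4.3.3 fitted 6 group means over the 18 brain arrays with moderated variances, and the liver arrays likewise apart. P-values are two-sided and adjusted by Benjamini-Hochberg over 45037 probe sets. The fit over all 36 arrays was added after the data were seen. Intervals are at 95%. Data were simulated with 200 changed probe sets and independent normal noise on every array. There the test recovered 4% of differences of 0.3, 46% of 0.6, 86% of 1 and 100% of 2, with 3 false calls among 121. The real arrays deviated together in part and had unequal quality weights, so these rates may not hold for them.

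Named genes were, by brightest probe set, the 15 largest called differences in each direction, the 10 smallest interaction p, up to 4 called members of each of 26 lists (or the member furthest from 0 where none was called) and a fixed set of sleep-loss and strain genes. The members and lists were chosen with earlier results of these data known. Same-numbered AKR/J and C57BL/6J control arrays deviated with correlations of 0.11, 0.23 and 0.15, and differently numbered ones with -0.20 to 0.15. AKR/J control array 3 correlated alike, at 0.15, with C57BL/6J control arrays 1 and 3. The values thus do not establish a pairing, and the labels state none. Same-numbered sleep-deprived arrays gave -0.46, 0.33 and -0.46. Alternatives varied the scaling, the filter on dim probe sets, the arrays fitted, the variance model, array weights, the replicate block, the threshold and the probe set per gene.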

Additional observations from a re-analysis of the deposited data

Results flagged for a closer look

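Of the 30 genes with the largest difference between AKR/J and C57BL/6J in sleep-deprived brain, 22 had a strain difference that differed between brain and liver, by a test over both tissues added after the data were seen (adjusted p below 0.05, limma). The 30 were chosen by the brain difference, which enters that test, so the choice favours a high count. The values that follow are the difference in brain minus that in liver, on the log2 scale. Among the genes higher in AKR/J brain it was 2.27 for Pla2g4e, 1.53 for Kcnj9, 1.39 for Gabra2, 1.33 for Scg5, 1.32 for Tmem87a, 1.30 for Casp9 and 1.08 for Gnb1. It was negative for Abhd1, at -2.41, and for Hddc3, at -1.20, both of which differed more in liver.

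Among the genes lower in AKR/J brain, a negative value marks a deeper fall in brain. It was -2.36 for Ogfrl1, -2.24 for Soga3, -2.15 for Pcdhb9, -1.81 for Shisa4 and -1.67 for Kcnma1. It was -1.37 for Gm26782, -1.33 for Mid1, -1.18 for Morn2, -1.17 for Pisd-ps3 and -0.72 for Stk25. It was positive for H2-D1, at 2.69, Zfp874a, at 1.48, and H2-K1, at 1.33, all of which fell more in liver. The part of low levels in liver in these values was not tested.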

How the results depend on the processing

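The 815 probe sets and 339 genes called in sleep-deprived brain became 331 and 122 with only the 2 groups of the comparison in the fit, 4164 and 1959 with array weights and 466 and 188 at an adjusted p below 0.01. Leaving out each of the 6 arrays in turn gave 535 to 923 probe sets and 210 to 428 genes. The other alternatives stayed within 1.5 times: 709 with median centring, 1050 with quantile normalisation, 752 among brighter probe sets, 684 without DBA/2J, 850 with a variance trend, 716 with the replicate number as a block and 714 without the 2 arrays of narrow spread, of which 574 were among the 815. The 901 control calls became 3872 with array weights, 515 at 0.01 and 259 once both AKR/J controls labelled ZT 0 were left out, which leaves 1 AKR/J control assumed to vary like the other groups. Without each array in turn they ranged from 555 to 651, and with the replicate block they were 804. Without C57BL/6J control array 2, which had the raised Actb difference, they were 640. The interaction gave 42 calls with array weights and 0 to 0 without each array in turn; the liver gave 1973 to 2521. Same-numbered sleep-deprived arrays deviated with correlations of -0.46, 0.33 and -0.46, so their numbers do not pair them, and not every array correlated best with its own number. The block and median centring each ended the calls of Entpd3, Gabra6, Hspe1 and Kcnv1 among the named genes, and centring also that of Egr2. The block moved no count by over 1.5 times, and the cause of these shifts was not tested. Of the 30 largest genes, 27 kept their call under every alternative run, and Gabra2, Gm26782 and Pcdhb9 lost it with only the 2 groups. Of 20 other named calls 15 were lost under at least 1, and none of the 50 reversed.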
